A study of Mus musculus with 16 samples.

Results

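Solute carriers are the membrane proteins, numbered by family as Slc1, Slc2 and onwards, that move amino acids, transmitters, sugars, ions, metals, nucleotides and metabolites across cell and organelle membranes. The genes described here are those whose probe sets on a mouse array carry a single platform symbol beginning with Slc and a digit, without Slc18a3, Slc32a1, Slc6a9, Slc12a2 and Slc2a1. This selection, which used no intensity, gave 180 of 12488 probe sets and 146 genes of the 8251 with a single symbol. Slc9a3r1 and Slc9a3r2, which are scaffold proteins, and Slc4a1ap, an adaptor protein, carry such a symbol but are not transporters. All of them are included in the counts of genes, also where the text below counts transporters. The 146 genes were measured in RNA of mouse spinal cord on 16 single-colour arrays. The titles name 6 spastic arrays, 2 arrays of B6C3Fe, a hybrid mouse stock, and 8 control arrays.

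The recessive spastic mutation lies in Glrb, which encodes the beta subunit of glycine receptors, and causes stiffness and tremor. The spastic samples were titled M at 6 months, 1 at 2 months and 2 at 2 months (all female), and sev at 3 months and 3+ months (both male), where sev and M are left as titled and 3+ is a lower bound. The B6C3Fe sample was titled male at 1 month. The control samples were female and male at 12 months and female and male at 9 months, and their genotype and strain beyond the word control are not stated. Arrays a and b of one title were averaged, giving 5 spastic samples (6 arrays), 1 B6C3Fe sample (2 arrays) and 4 control samples (8 arrays). Nothing says whether such arrays were separate animals, so p-values measure the spread between these samples only. By the titled ages, spastic mice were younger than every control, with 3+ only a lower bound, and older than the B6C3Fe mice. Group and age therefore cannot be told apart by the design.

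Some features of the arrays touch every result below. The median intensity was 289 to 343 on spastic arrays, 343 to 347.2 on B6C3Fe arrays and 310.5 to 383.6 on control arrays. Glrb lay at a log2 intensity of 9.92 to 11.11 on spastic, 12.92 to 12.98 on B6C3Fe and 12.70 to 13.30 on control arrays, so its groups match the labels. All 6 spastic arrays had the female pattern of Xist, the 2 titled male included, while the tests use sex as titled. The log2 ratio of 3-prime to 5-prime signal of the Pcx control probe sets, which is higher in degraded or less completely copied RNA, was 2.00 to 2.98 on spastic, 1.67 to 1.89 on B6C3Fe and 1.31 to 2.72 on control arrays. Among controls the 2.72 belongs to one 9-month female array, a, and the other 7 control arrays lay between 1.31 and 2.09, so the overlap with spastic arrays rests on 2 control arrays. In spastic against control cords 9.83% of all 6427 genes tested were called higher by limma and 9.93% lower. Of 11 tested genes of endothelial and mural cells, the cells of vessel walls, 8 were higher and 0 lower in spastic cords. The summed intensity of the 16 measured genes of that list was 8591 to 10231 on spastic, 5084 to 5145 on B6C3Fe and 4595 to 6386 on control arrays, with none of them on every array at the floor (log2 of 5.93, the 20th percentile of all values, to which lower values were raised). Astrocyte genes summed to 53673 to 88585 on spastic, 70700 to 71717 on B6C3Fe and 61894 to 87016 on control arrays. Of the tested marker genes in spastic against control cords, 1 was higher and 3 lower of 10 astrocyte genes, 2 higher and 4 lower of 13 neuronal genes, 0 higher and 3 lower of 10 microglial genes, 1 higher and 1 lower of 7 oligodendrocyte genes, and 2 higher and 1 lower of 10 meningeal genes. The part of RNA quality, vessel cells and other cells in the transporter results was not tested beyond the fits given below, and in whole cord fewer cells of a type cannot be told apart from less RNA per cell.

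**Figure D1:**
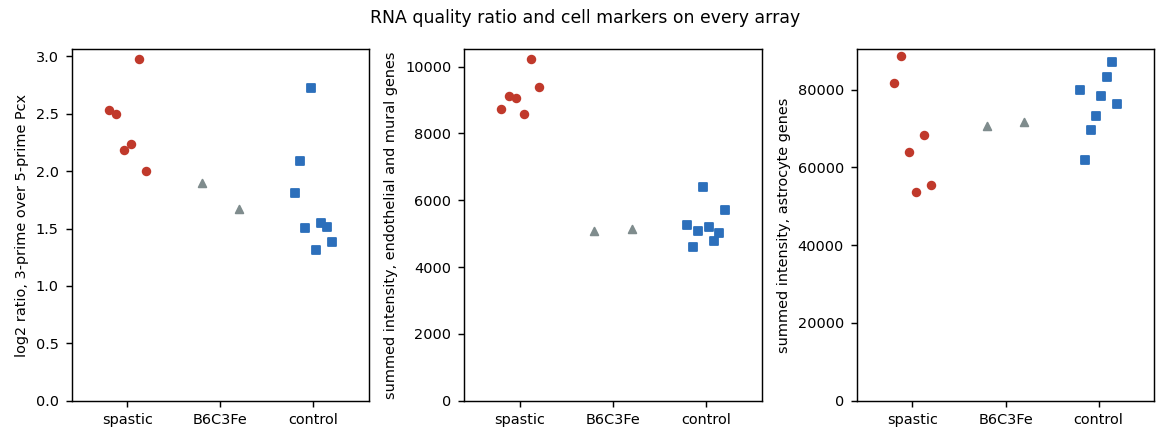
Points are single arrays, with spastic (circles), B6C3Fe (triangles) and control (squares) from left to right. The panels plot the log2 ratio of 3-prime to 5-prime Pcx signal and the summed linear intensity of the endothelial and mural list and of the astrocyte list; the vessel sums do not overlap between spastic and control arrays, while the other panels do. In the Pcx panel that overlap rests on 2 control arrays, at 2.09 and 2.72.

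Transporters fall into a few working designs. Secondary active carriers use the sodium, proton or chloride gradient that ATP-driven pumps build, facilitative carriers let a solute run down its own gradient, and exchangers trade one solute for another. In the spinal cord they clear glutamate, glycine and GABA from synapses, set the chloride gradient on which inhibition rests, feed neurons with glucose and lactate, and carry nutrients across the blood-spinal cord barrier. Mitochondrial carriers of the Slc25 family are the doors of the inner mitochondrial membrane.

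Of the 146 genes, 98 had a probe set above the filter on mean log2 intensity (7.62, the 40th percentile of probe set means) and were tested, and 48 lay below it. That mean is over the arrays of all groups, so a gene can pass with the mean of a group under 7.62. Among genes called in spastic against control cords, this holds for Slc16a1, Slc22a5 and Slc2a4. The amino acid and transmitter carriers held 30 genes, 18 of them tested. The inorganic ion and acid-base group held 22 and 13, the metal carriers 17 and 15, the mitochondrial carriers 20 and 18, and the carriers of nucleosides, nucleotide sugars and acetyl-CoA 13 and 10. Carriers of organic ions, lipids and vitamins held 28 and 16, those of sugars and monocarboxylates 13 and 7, other families 2 and 1, and the vesicular and organic anion group, here Slc17a1, 1 and 0. Slc7a1, Slc26a2, Slc25a48, Slc23a1 and Slc16a7 never rose above the floor of 5.93 on any array, and such values give only a bound.

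For 120 of the 146 genes RefSeq promoter windows of GRCm38.p6 were at hand, each from 250 bases before the gene's start to 50 after it. Among transporters called in spastic cords that have a window, Slc1a6 rose and Slc8a1 fell the most. Slc16a1 was the one whose spastic arrays all lay below every control array. Slc39a7, Slc25a39 and the scaffold Slc9a3r2 also have a window and lay above the controls on every spastic array, and are not shown. The windows shown are those of Slc1a6, the neuronal glutamate transporter, Slc8a1, the sodium-calcium exchanger, and Slc16a1, the monocarboxylate transporter. They lie at chr10:78780246-78780545 on the plus strand, chr17:81738338-81738637 on the minus strand and chr3:104638414-104638713 on the plus strand. Capitals mark the E-box CACGTG, a palindrome that reads the same on both strands.
Slc1a6: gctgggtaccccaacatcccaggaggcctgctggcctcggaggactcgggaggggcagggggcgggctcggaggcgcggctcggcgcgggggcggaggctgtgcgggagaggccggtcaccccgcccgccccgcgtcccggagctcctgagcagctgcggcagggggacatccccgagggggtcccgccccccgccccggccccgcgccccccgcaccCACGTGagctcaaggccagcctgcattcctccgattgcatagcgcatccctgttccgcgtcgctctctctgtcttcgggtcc
Slc8a1: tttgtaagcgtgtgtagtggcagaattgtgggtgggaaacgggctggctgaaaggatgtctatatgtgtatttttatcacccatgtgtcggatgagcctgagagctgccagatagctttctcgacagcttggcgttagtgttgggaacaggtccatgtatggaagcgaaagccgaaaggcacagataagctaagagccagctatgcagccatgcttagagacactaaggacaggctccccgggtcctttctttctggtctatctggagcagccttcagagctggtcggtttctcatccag
Slc16a1: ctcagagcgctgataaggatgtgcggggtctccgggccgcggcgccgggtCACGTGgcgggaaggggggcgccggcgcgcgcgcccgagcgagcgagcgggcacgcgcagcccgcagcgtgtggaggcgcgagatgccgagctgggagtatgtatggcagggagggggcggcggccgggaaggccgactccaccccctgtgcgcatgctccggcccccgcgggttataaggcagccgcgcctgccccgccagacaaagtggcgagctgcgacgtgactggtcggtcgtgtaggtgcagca
The E-box starts 32 bases before the start of Slc1a6 and 200 before that of Slc16a1, and these letters are not in the Slc8a1 window. GC made up 75.7% of the Slc1a6, 50.7% of the Slc8a1 and 73.7% of the Slc16a1 window. On either strand CACGTG occurred in 7.15% of all 32851 windows, in 13 of 81 tested transporters with a window (16%) and in 2 of the 15 called in spastic cords that had one. Those 2 are Slc1a6 and Slc16a1, both shown above. The GC box GGGCGGG was in 25.6% of all windows, in 52 of the 81 (64.2%) and in 9 of the 15. The TATA box TATAAA was in 13.6% of all windows, 5 of the 81 and 0 of the 15, and the C/EBP-ATF element TGATGNAA, a motif of the amino acid response, in 3.97%, 3 and 0. The shares of all windows are counted per window and include genes that were not tested, while the 81 and the 15 are tested genes. The shares are therefore not like for like, and tested genes outside the transporters were not counted. A match describes the window only.

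Spastic against control cords asks which transporters differ in the mutant cord. By limma, 22 of the 98 tested genes, the scaffold Slc9a3r2 among them, were called at an adjusted p under 0.05, 17 higher and 5 lower, against 19.8% of all 6427 genes tested; the Slc share, 22.4%, is near that background. Called higher were 9.83% and lower 9.93% of all genes. The median log2 difference was 0.07 over these 98 genes and -0.02 over all genes. The largest rise was Slc7a5, the light subunit of the large neutral amino acid exchanger, at 2.17-fold, and the largest fall Slc8a1, at 2.08-fold. Spastic and control arrays did not overlap for 7 of these genes, Slc7a5, Slc9a3r2, Slc39a7, Slc25a39, Slc4a2 and Slc35c2 above and Slc16a1 below, against 8.01% of all genes. Leaving out the 3+ month spastic sample gave 14 calls, with 13.4% of all genes called, and leaving out the females of 12 months among the controls 14, with 11.2%. Leaving out the control males of 12 or of 9 months gave 13 each, with 12.6% and 12.3% of all genes. In an age-adjusted fit, which counts B6C3Fe as a control and adds log2 of age as a term, there were 10 calls, with 10.9% of all genes called. The only sample of 1 month in it is B6C3Fe, whose stock may differ from that of the controls. Age and stock can therefore not be told apart in its age term, here and wherever the age-adjusted fit is given below. The 3+ month sample entered it as 3 months. A fit holding the Pcx ratio left 1, Slc7a5, with 0.14% of all genes called (9 of 6427). All 22 kept their sign in that fit, but some differences shrank: Slc25a28 was at 0.09 in it and 0.42 without the ratio, Slc4a4 at -0.31 and -0.85, and Slc16a1 at -0.46 and -0.82.

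**Figure D2:**
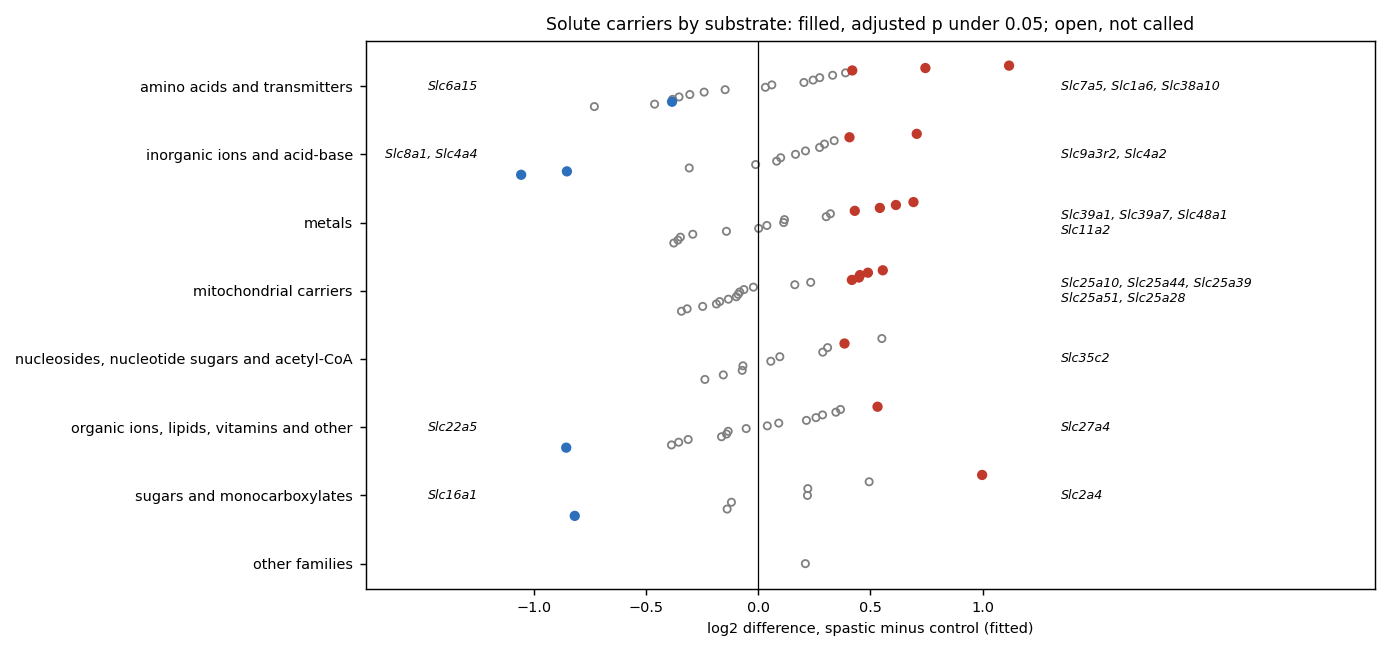
Each point is one of the 98 tested genes, by substrate group, at its fitted log2 difference of spastic minus control. Filled points passed limma at an adjusted p under 0.05 and are named at the right (17 higher) or left (5 lower). Of all genes tested, 9.83% were called higher and 9.93% lower. The called mitochondrial (5 of 18) and metal carriers (4 of 15) are on the higher side, while 11 of the 18 mitochondrial differences were negative.

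Among amino acid and transmitter carriers 3 were higher and 1 lower of 18 (22.2% called, against 19.8% of all genes), with a median difference of 0.05. Slc7a5, known as LAT1, imports leucine, tyrosine and other large amino acids and is abundant in the endothelium of the blood-brain barrier. Its log2 intensity on the 6 spastic arrays was 11.39 at the lowest, 11.56 at the median and 11.98 at the highest, 11.03 and 11.21 on the B6C3Fe arrays, and 10.46, 10.56 and 10.81 on the 8 control arrays. Every spastic array lay above every other array, and both B6C3Fe arrays lay above all controls. The sample means were 11.67 ± 0.26 in spastic and 10.58 ± 0.05 in control cords (SD, n = 5 and 4), and the fitted difference was 1.12 (SE 0.10, adjusted p = 0.00036). It was the one transporter called under every alternative, at 1.06 to 1.17 with a sample left out, 0.93 in the age-adjusted fit and 0.95 with the Pcx ratio. Its partner Slc3a2, the heavy chain that brings the exchanger to the cell surface, ran from 11.98 to 12.43 on spastic, 12.14 to 12.27 on B6C3Fe and 11.60 to 12.16 on control arrays. These groups overlapped, and its difference of 0.39 (95% confidence interval 0.10 to 0.67, adjusted p = 0.0562) just missed the threshold.

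Slc1a6, or EAAT4, takes up glutamate into neurons and is best known from Purkinje cells. Its log2 intensity was 9.42, 9.77 and 10.03 (lowest, median, highest) on spastic, 9.38 and 9.66 on B6C3Fe and 8.74, 9.08 and 9.50 on control arrays. One spastic array, one of the 6-month pair, lay below the highest control array, and the difference was 0.74 (SE 0.12, adjusted p = 0.00311). The other glutamate carriers of family 1 did not pass the test. Slc1a2, the main astrocyte glutamate transporter, was at -0.35 (adjusted p = 0.469), with the 3+ month spastic array at 7.67 and the other spastic arrays at 8.75 to 9.53. Slc1a1, a neuronal glutamate transporter, was at 0.03 (adjusted p = 0.912), and its second, dimmer probe set at -0.60. Slc1a4, a carrier of alanine and serine, was at 0.06 (95% confidence interval -0.21 to 0.33). The intervals of Slc1a1 and Slc1a2, -0.32 to 0.38 and -1.05 to 0.34, show how large a change could have gone unseen.

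Slc38a10, a transporter of neutral amino acids, rose by 0.42 (SE 0.13, adjusted p = 0.0479). It ran from 10.32 to 10.92 on spastic, 10.30 to 10.33 on B6C3Fe and 9.93 to 10.55 on control arrays, and was called in 3 of 10 fits with a sample removed. Its second probe set, at the floor on 15 arrays, was at -0.04. Slc6a15, a neuronal carrier of branched-chain amino acids and proline, was the one member of this group called lower. Its arrays were at 10.66, 10.77 and 11.09 (lowest, median, highest) in spastic, 10.38 and 10.76 in B6C3Fe and 11.06, 11.21 and 11.35 in control cords. The sev array alone reached the control range, and the difference was -0.38 (SE 0.10, adjusted p = 0.0208), or -0.06 in the age-adjusted fit (adjusted p = 0.792). The taurine carrier Slc6a6 (0.24, adjusted p = 0.145), the creatine carrier Slc6a8 (0.33, adjusted p = 0.176) and the GABA carrier Slc6a13 (0.27, adjusted p = 0.251) did not pass. A dimmer probe set of Slc6a6 was at -0.98.

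Of the 13 tested genes of the inorganic ion and acid-base group, 2 were higher and 2 lower (30.8% called, against 19.8% of all genes), with a median of 0.17. Slc8a1, or NCX1, expels calcium in exchange for sodium in neurons, glia and muscle. It lay at 8.91, 8.98 and 9.48 (lowest, median, highest) on spastic, 9.81 and 10.34 on B6C3Fe and 9.27, 10.23 and 10.68 on control arrays. Apart from array a of the 9-month female controls, at 9.27, no control or B6C3Fe array came down to the spastic range. That array also had the highest Pcx ratio of the controls, 2.72. The gene was also called with that array left out, at -1.18. With all arrays the difference was -1.06 (SE 0.18, adjusted p = 0.00399) and stayed between -1.24 and -0.94 with a sample left out. Of its 2 dimmer probe sets, each at the floor on 9 arrays, one was at -0.86 and the other at -0.13.

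Slc4a4, the electrogenic sodium-bicarbonate cotransporter of astrocytes, ran at 9.37, 10.12 and 10.48 on spastic, 10.05 and 10.34 on B6C3Fe and 9.88, 10.94 and 11.29 on control arrays. Both 9-month female control arrays, at 9.88 and 10.29, and both B6C3Fe arrays lay within the spastic range. Its difference was -0.85 (SE 0.26, adjusted p = 0.0376), called in 4 of the 10 fits without a sample. The anion exchanger Slc4a2 moved the other way, at 10.66, 10.76 and 11.06 on spastic, 10.95 and 11.18 on B6C3Fe and 10.21, 10.40 and 10.61 on control arrays. No control array reached the spastic range, and the B6C3Fe mean was above the spastic one. The difference from controls was 0.41 (SE 0.10, adjusted p = 0.017) and 0.06 in the age-adjusted fit (adjusted p = 0.764).

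Slc9a3r2, which is not a transporter but the scaffold NHERF2 that tethers sodium-proton exchangers and carries an Slc symbol on this platform, rose by 0.71 (SE 0.15, adjusted p = 0.00809). It was at 9.21, 9.43 and 9.76 on spastic, 9.32 and 9.65 on B6C3Fe and 8.51, 8.67 and 9.07 on control arrays, so that spastic and B6C3Fe arrays lay together above the controls. In the age-adjusted fit its difference was 0.40 (adjusted p = 0.166). Slc12a5, or KCC2, extrudes chloride from neurons and sets the sign and strength of glycine and GABA responses. It ran from 7.87 to 9.23 on spastic, 7.87 to 8.75 on B6C3Fe and 7.72 to 9.26 on control arrays. The lowest control value is array a of the 9-month females, the control array with the highest Pcx ratio. It differed from array b of that sample by -1.20. The other control samples had means of 8.67 to 9.11. The Slc12a5 difference of -0.31 did not pass (95% confidence interval -0.88 to 0.27, adjusted p = 0.439). Without that array and array b of the 12-month females, a fit added after the values were seen, it was -0.43 (adjusted p = 0.193).

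The metal carriers held 4 higher and 0 lower of 15 (26.7% called, against 19.8% of all genes), with a median of 0.11. Slc39a7, or ZIP7, releases zinc from the endoplasmic reticulum and Golgi. It lay at 11.36, 11.48 and 11.70 on spastic, 11.09 and 11.12 on B6C3Fe and 10.21, 10.89 and 11.31 on control arrays, with no overlap of spastic and control. The difference was 0.61 (SE 0.12, adjusted p = 0.00553), in the range 0.54 to 0.74 with a sample left out. Slc39a1, or ZIP1, imports zinc at the cell surface. Its arrays were at 9.81, 10.30 and 10.52 in spastic, 10.27 and 10.59 in B6C3Fe and 9.33, 9.51 and 9.97 in control cords, and B6C3Fe lay with the spastic arrays. The difference was 0.69 (SE 0.15, adjusted p = 0.00889), and 0.26 in the age-adjusted fit (adjusted p = 0.364), while a dimmer probe set was at -0.16.

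Slc11a2, or DMT1, imports iron and other divalent metals. Its tested probe set was at 9.99, 10.28 and 10.41 on spastic, 9.74 and 9.87 on B6C3Fe and 9.62, 9.90 and 10.07 on control arrays, a difference of 0.43 (SE 0.11, adjusted p = 0.0234). Its other probe set above the filter was at -0.07 (adjusted p = 0.769 with every probe set tested), so the gene's call rests on 1 of 2. The heme transporter Slc48a1 was called at 0.54 (SE 0.12, adjusted p = 0.0124), and its control arrays fell into 2 sets. Spastic arrays ran from 9.42 to 10.13, B6C3Fe arrays were at 9.72 and 9.92, 6 control arrays lay between 9.73 and 9.80, and the other 2 were at 7.64 (12-month female, array b) and 7.99 (9-month female, array a, the control array with the highest Pcx ratio). Without array a of the 9-month females alone the difference was 0.30 (adjusted p = 0.236). Without both low arrays, a fit added after the values were seen, its difference was 0.01 (adjusted p = 0.955). That fit again called 22 Slc genes, 19 of them shared, with 22.6% of all genes called. The low arrays belong to different samples, and Slc48a1 was called each time a single sample was removed, in 10 of 10 fits.

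Zinc exporters of family 30 had 0 of 4 called, against 19.8% of all genes. Slc30a3, which fills synaptic vesicles with zinc, was at 0.11 (adjusted p = 0.403). Slc30a9 was the transporter nearest the threshold from outside (-0.35, adjusted p = 0.0505), followed by Slc3a2 and by Slc22a17 (0.37, adjusted p = 0.0568), a receptor for lipocalin. For Slc30a5 the brighter probe set was at -0.36 and the other at -1.04, which passed the test where every probe set entered (adjusted p = 0.0095). The copper importer Slc31a1 was at 0.32 (adjusted p = 0.0955) on one probe set and -0.03 on the other.

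Mitochondrial carriers held 5 higher and 0 lower of 18 (27.8% called, against 19.8% of all genes). The median of the group was -0.07, with 11 differences negative. Slc25a39, which carries glutathione into mitochondria, lay at 11.51, 11.55 and 11.70 on spastic, 11.19 and 11.34 on B6C3Fe and 10.94, 11.10 and 11.25 on control arrays. Spastic arrays lay above all others, and the difference was 0.45 (SE 0.09, adjusted p = 0.00553), called whichever sample was removed. Slc25a28, or mitoferrin-2, imports iron for heme and iron-sulphur clusters and ran from 10.15 to 10.89 on spastic, 9.93 to 10.14 on B6C3Fe and 9.99 to 10.25 on control arrays. It differed by 0.42 (SE 0.13, adjusted p = 0.0382), overlapping the controls by 1 spastic array, and was called in 3 of the 10 such fits.

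Slc25a10, the dicarboxylate carrier, rose by 0.55 (adjusted p = 0.0388), with spastic arrays from 8.53 to 9.22, B6C3Fe at 8.56 and 8.62, and controls from 7.34 to 8.92. The lowest control value is array a of the 12-month females, which differed from array b of that sample by -1.56. Slc25a44, a carrier of branched-chain amino acids, rose by 0.49 (adjusted p = 0.0481), with spastic arrays from 8.96 to 9.77, B6C3Fe at 8.97 and 9.41, and controls from 8.70 to 9.23. These calls were kept in 3 and 2 of the 10 fits. Slc25a51, the mitochondrial NAD carrier, rose by 0.45 (adjusted p = 0.0266) on its brighter probe set and was at -0.27 on the other. The ADP/ATP carriers, among the most abundant proteins of the inner membrane, were on the other side of 0. Slc25a4 ran from 13.44 to 13.79 on spastic, 13.42 to 13.55 on B6C3Fe and 13.74 to 14.12 on control arrays (-0.34, adjusted p = 0.0692), and Slc25a5 was at -0.32 (adjusted p = 0.145), with dimmer probe sets at -0.48 and 0.68.

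Sugar and monocarboxylate carriers held 1 higher and 1 lower of 7 (28.6% called, against 19.8% of all genes), with a median of 0.22. Slc16a1, or MCT1, moves lactate, pyruvate and ketone bodies and is found in oligodendrocytes, astrocytes and endothelium. Its arrays lay at 6.81, 7.51 and 7.69 in spastic, 7.86 and 8.05 in B6C3Fe and 7.88, 8.27 and 8.40 in control cords. Every spastic array was below every other array, and the difference was -0.82, or 1.76-fold lower (SE 0.21, adjusted p = 0.0192). The call was lost without the 9-month male controls. Its spastic mean, 7.40, lay under the filter of 7.62, so it was tested through the groups where it is high. Slc2a4, or GLUT4, is the insulin-responsive glucose transporter of muscle and fat and is present in some neurons. It was at 7.20, 8.33 and 8.97 on spastic, 7.58 and 8.10 on B6C3Fe and 5.93, 7.68 and 8.33 on control arrays. The lowest control value, array a of the 12-month males, is the floor, and the highest, 8.33, is array b of that same sample. The groups overlapped widely, the difference was 1.0 (SE 0.26, adjusted p = 0.0218), and a dimmer probe set was at 0.03. The control mean of the tested probe set, 7.38, lay under the filter, so it was tested through the groups where it is high. Skeletal muscle genes summed to 8836 to 19194 on spastic, 14586 to 15318 on B6C3Fe and 14217 to 21635 on control arrays, lower rather than higher in spastic cords at the median (12359 against 17708), and their part in this result was not tested.

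Among nucleoside, nucleotide sugar and acetyl-CoA carriers 1 of 10 was higher and 0 lower, against 19.8% of all genes called. Slc35c2, a Golgi protein of the nucleotide sugar family, lay at 9.91, 9.95, 9.95, 10.04, 10.05 and 10.05 on the spastic arrays, 9.63 and 9.69 on B6C3Fe and 9.25, 9.64 and 9.77 on control arrays. Spastic arrays did not overlap the rest, and the difference was 0.38 (SE 0.11, adjusted p = 0.0288), called in 5 of the 10 fits without a sample. The nucleoside transporter Slc29a1 was at 0.31 (adjusted p = 0.313), with another probe set at -0.39. Slc35e1 was likewise split, at 0.55 (adjusted p = 0.0718) and -0.23.

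Of 16 carriers of organic ions, lipids and vitamins 1 was higher and 1 lower (12.5% called, against 19.8% of all genes). Slc22a5, or OCTN2, imports carnitine, which long-chain fatty acids need to enter mitochondria. It was at 7.18, 7.58 and 7.84 on spastic, 8.38 and 8.80 on B6C3Fe and 7.74, 8.47 and 8.99 on control arrays. A single control array, array a of the 9-month females at 7.74, entered the spastic range. The difference was -0.86 (SE 0.19, adjusted p = 0.0106), between -0.96 and -0.75 with a sample left out. The spastic mean, 7.55, lay under the filter of 7.62, so Slc22a5 was tested through the groups where it is high. Slc27a4, a fatty acid transporter, rose by 0.53 (SE 0.14, adjusted p = 0.0242), with spastic arrays from 9.77 to 10.16, B6C3Fe at 9.99 and 10.05, and controls from 9.11 to 9.93. It was called in 6 of the 10 fits with a sample removed, not called when 9-month female control array a was left out (0.43, adjusted p = 0.0859), and at 0.27 in the age-adjusted fit (adjusted p = 0.296). Slc66a2, of the other families, was at 0.21 (adjusted p = 0.258).

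**Figure D3:**
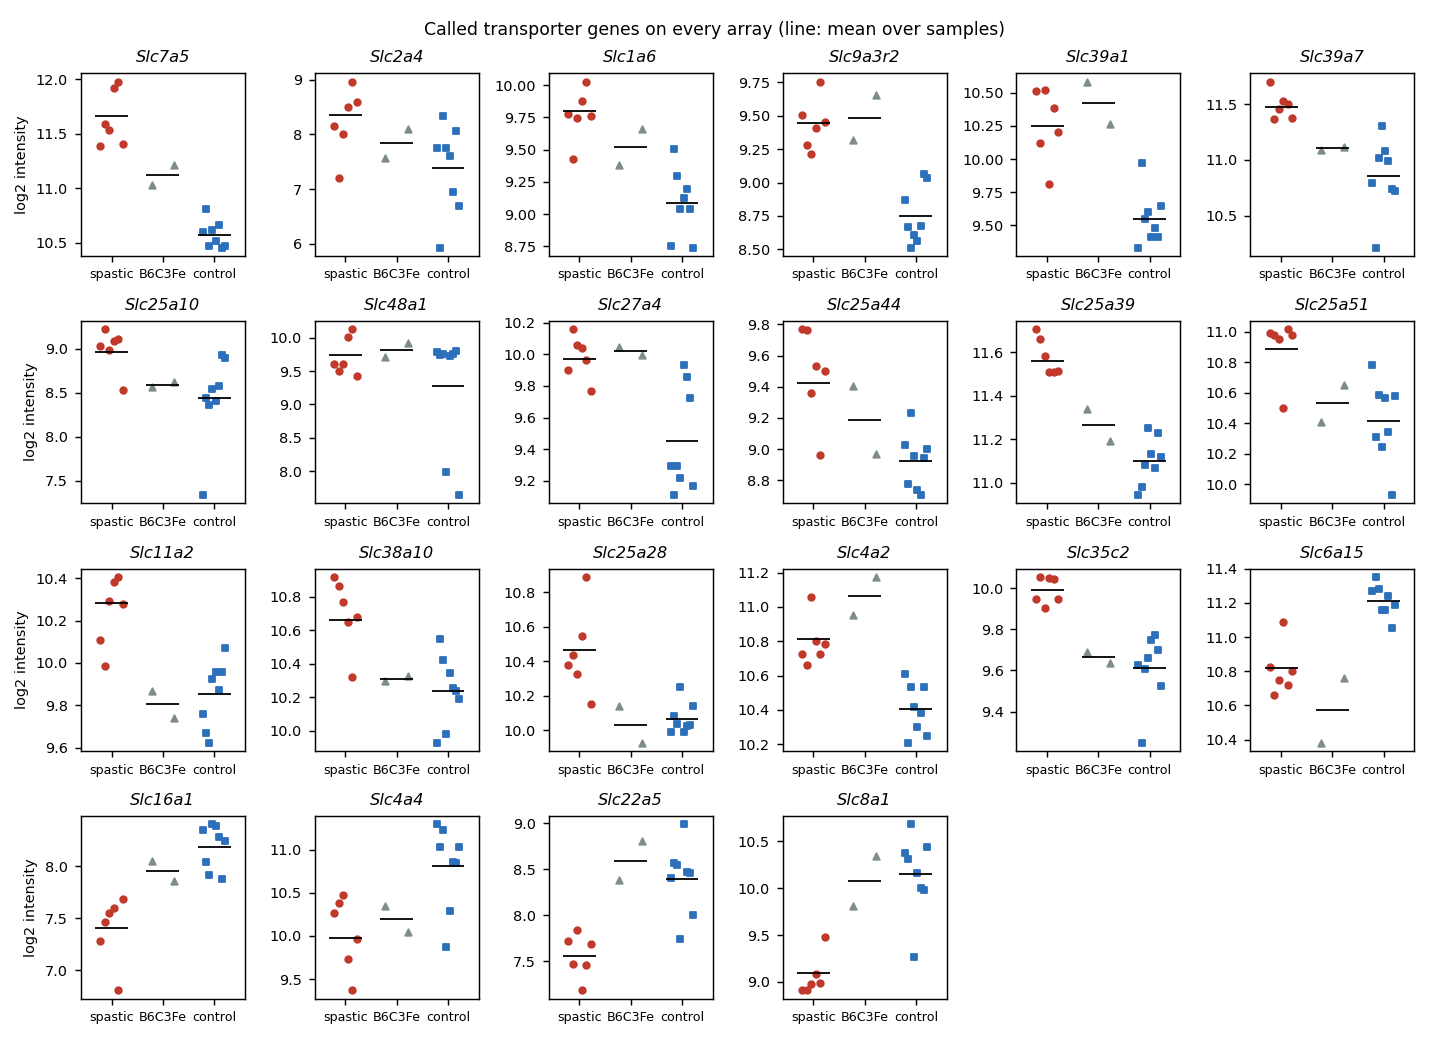
Each panel is 1 of the 22 called genes, with the log2 intensity of every spastic (circles), B6C3Fe (triangles) and control array (squares) and a line at the mean over samples; the vertical scale differs between panels. Slc7a5 separates spastic from control arrays with no overlap (11.39 and above against 10.81 and below), while Slc48a1 shows 2 control arrays, 7.64 and 7.99, far under the other 6.

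Of the 22 called genes, 10 stayed called whichever sample was removed: Slc7a5, Slc1a6, Slc8a1, Slc9a3r2, Slc4a2, Slc39a1, Slc39a7, Slc48a1, Slc25a39 and Slc22a5. In the age-adjusted fit 8 of the 22 kept it, namely Slc7a5, Slc1a6, Slc8a1, Slc16a1, Slc22a5, Slc39a7, Slc25a39 and Slc25a28. Of the 10, Slc9a3r2, Slc4a2, Slc39a1 and Slc48a1 therefore lost it there. Without sex in the model 19 kept it, with 19.3% of all genes called. With only female-titled samples, which are fewer, 3 did (Slc7a5, Slc39a1 and Slc38a10), with 2.57% of all genes called. The genes that lost it without sex were Slc25a10, Slc25a28 and Slc48a1.

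Primary pumps and proteins that work with transporters, a list of 43 genes, had 29 tested, 4 of them higher and 5 lower. The share called was 31%, against 19.8% of all genes tested. Higher were the V-ATPase subunits Atp6v0a1 (0.79, adjusted p = 0.039) and Atp6v0b (0.34, adjusted p = 0.0415), the sodium pump subunit Atp1b2 of glia (0.73, adjusted p = 0.04), and Bsg (0.50, adjusted p = 0.00509), the chaperone that carries Slc16a1 to the surface. Lower were Emb (-0.57, adjusted p = 0.00907), the other chaperone of monocarboxylate transporters, and Car2 (-0.52, adjusted p = 0.0175), the carbonic anhydrase that makes the bicarbonate moved by Slc4a4. The sodium pump subunit Atp1b1 (-0.47, adjusted p = 0.0216) and the V-ATPase genes Atp6ap2 (-0.68, adjusted p = 0.00578) and Atp6v1c1 (-0.41, adjusted p = 0.039) were lower too. The median of the 29 was 0.08.

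Spastic against B6C3Fe cords sets the mutants beside a younger sample. It has a single sample on one side, assumed to vary like the others, and 2 of the 98 transporters were called, 1 higher and 1 lower, against 2.05% of all genes (1.42% higher and 0.638% lower). Slc44a2, a choline transporter-like protein, lay at 8.78, 9.18 and 9.43 on spastic, 7.83 and 8.09 on B6C3Fe and 8.50, 8.88 and 9.19 on control arrays. All spastic arrays were above both B6C3Fe arrays, by a fitted 1.23 (SE 0.25, adjusted p = 0.0351). Slc35b2, the Golgi importer of the sulphate donor PAPS, lay at 9.33, 9.46 and 9.60 on spastic, 10.25 and 10.43 on B6C3Fe and 9.24, 9.58 and 10.01 on control arrays. Spastic arrays were all lower than B6C3Fe, by a fitted -1.05 (SE 0.21, adjusted p = 0.035), and within the control range. Slc7a5 was at 0.71 (95% confidence interval 0.33 to 1.10, adjusted p = 0.0657), Slc8a1 at -0.97 (-1.66 to -0.27, adjusted p = 0.14) and Slc22a5 at -1.10 (-1.82 to -0.38, adjusted p = 0.11). Neither call was made without the first 2-month spastic sample, the sev sample, the 3+ month sample, or without the females of 12 months or the males of 9 months among the controls.

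**Figure D4:**
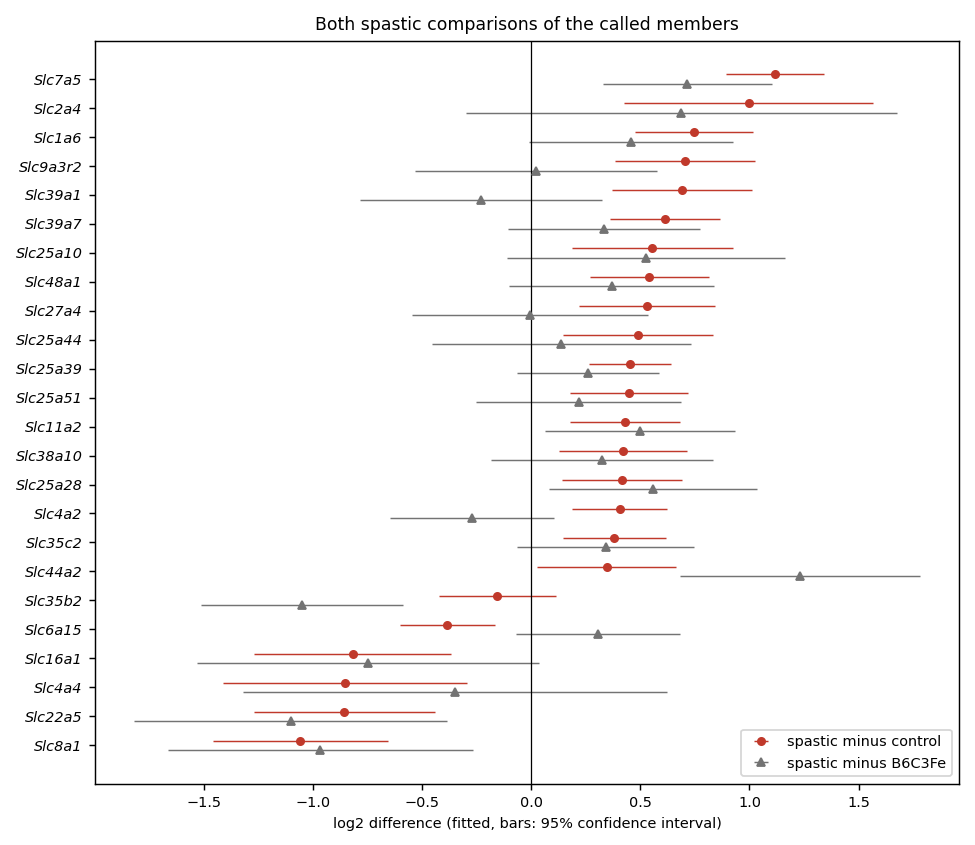
Circles give spastic minus control and triangles spastic minus B6C3Fe, as fitted log2 differences with 95% confidence intervals, for the 22 genes called against controls plus Slc44a2 and Slc35b2. The comparisons share the spastic samples; Slc7a5 and Slc8a1 lie on the same side of 0 in both, while Slc39a1, Slc4a2 and Slc6a15 have the opposite sign against B6C3Fe.

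The B6C3Fe mean stood nearer to the control mean for 13 of the 22 called genes and nearer to the spastic mean for 9 (40.9%), against 43.5% of all 1270 called genes. Nearer to controls were, among others, Slc7a5, Slc8a1, Slc16a1, Slc22a5, Slc11a2 and Slc25a39. Nearer to spastic were Slc1a6, Slc4a4, Slc4a2, Slc6a15, Slc9a3r2, Slc25a44, Slc27a4, Slc39a1 and Slc48a1. For Slc4a2, Slc39a1, Slc27a4, Slc6a15, Slc9a3r2 and Slc48a1 the B6C3Fe mean was farther from controls than the spastic mean was.

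B6C3Fe against control cords gave 0 called transporters by limma, against 0.389% of all genes. At an unadjusted p under 0.05 were 11 of 98, against 965 of all 6427 genes tested. The smallest p-values were those of Slc35b2 (0.89, adjusted p = 0.0945), the scaffold Slc9a3r1 (0.90, adjusted p = 0.0976) and Slc6a15 (-0.69, adjusted p = 0.101). With every array as its own replicate 9 were called, with 8.09% of all genes called, and with samples as a random block 7, with 3.59%.

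Within groups, 0 transporters were called by limma in any comparison. Sev is 1 sample on 1 array, assumed to vary like the others, and 0.0156% of all genes were called in sev minus the other spastic samples. At an unadjusted p under 0.05 were 7 of 98 members, against 257 of all 6427 genes tested. The smallest p-values were for Slc9a3r1 (-0.52), Slc39a1 (-0.60) and the glutamine carrier Slc38a2 (0.72), each at adjusted p = 0.995. Controls of 12 minus 9 months had 6 members at that unadjusted threshold, against 321 of all genes, with 0.00% of all genes called. The smallest p-values were for Slc8a1 (0.60), Slc27a4 (-0.47) and Slc39a7 (-0.34), each at adjusted p = 0.932. Female minus male controls had 5 members at it, against 234 of all genes, with 0.0467% of all genes called. The smallest p-values were for Slc48a1 (-0.98), Slc35b2 (0.50) and the ornithine carrier Slc25a15 (0.53), each at adjusted p = 0.999. The female values of Slc48a1 include the 2 low arrays given above.

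**Figure D5:**
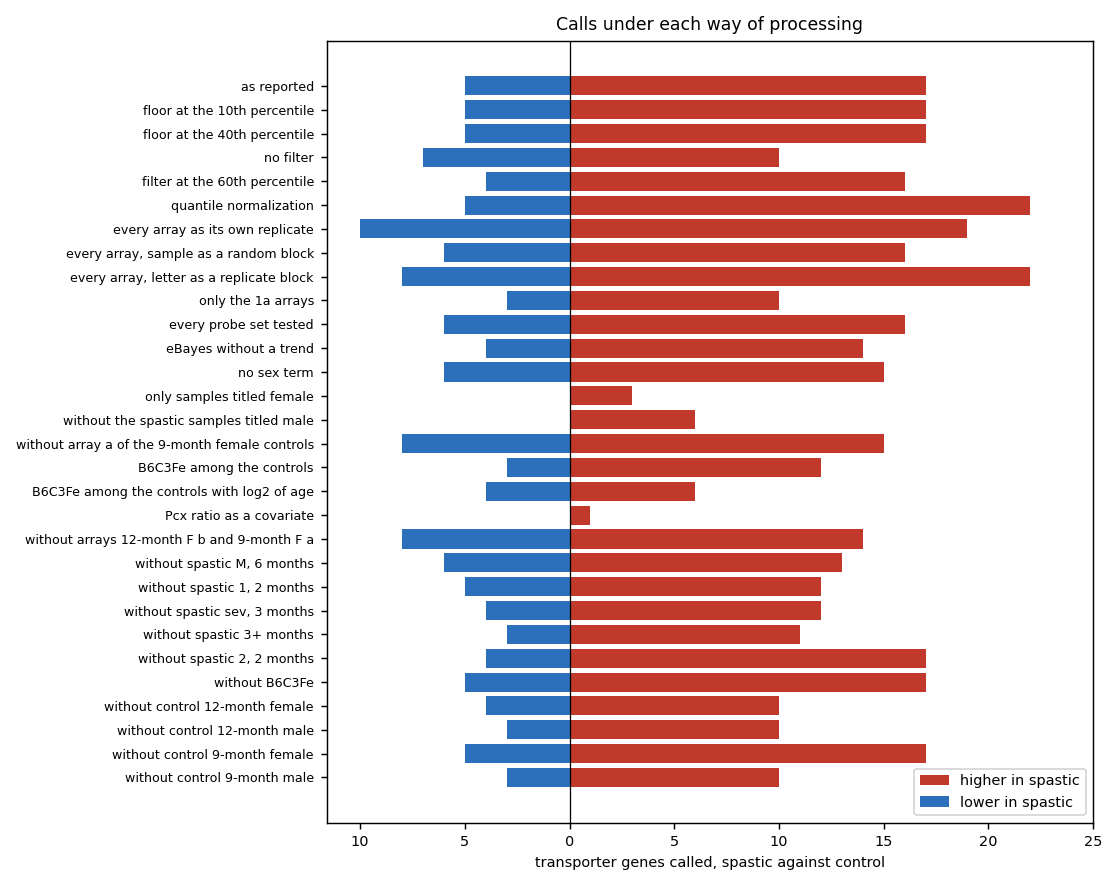
Bars give the number of transporters called higher (right of 0) and lower (left of 0) in spastic against control cords under each way of processing, with the reported fit at the top (17 and 5). The count is lowest with the Pcx ratio as a covariate (1 higher, with 0.14% of all genes called). Next lowest is the fit with only samples titled female (3 higher, with 2.57% of all genes called).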

How the data were processed

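The deposited intensity values, 1 per probe set and array, are linear and were taken as scaled by the authors, since their mean after trimming 2% at each end was 800.4 to 800.5 on every array; the program that made them is not stated in the sources read. Values under the 20th percentile (60.9) were set to it and log2 taken, and 66 control probe sets were left out. Symbols came from GEO's platform annotation, checked by Entrez ID against GRCm38.p6. Probe sets with a mean log2 above the 40th percentile were tested, the brightest for each gene, 6427 in all; levels are not compared between probe sets. Arrays of one title were averaged to 10 samples. limma 3.58.1 in R 4.3.3 (lmFit, eBayes with a trend) fitted group and titled sex over all groups, 2-sided, with Benjamini-Hochberg adjustment over all genes; calls are at 0.05. Named were all called members, the smallest p of each substrate group, fixed transporters of cord biology and, where 0 were called, the 3 smallest p-values. Of members whose probe sets disagree only some are named, and others, such as Slc6a4 and Slc25a1, are not shown. The members, lists and naming rule were chosen with earlier results of these data known. Alternatives were other floors, filters, normalization, replicate handling, covariates and left-out samples. The fit was also run on simulated data, whose outcome is not given here and is not used as support. The number of arrays limits the precision.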

Additional observations from a re-analysis of the deposited data

Results flagged for a closer look

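Among 72 groups of samples examined, the 5 spastic and 4 control samples of 36 named transporters, 7 had 1 sample standing apart by Dixon's 95% criterion, where chance flags about 1 in 20. Values are log2 intensities per sample. In spastic cords Slc25a10 was at 8.528 in the second 2-month sample and at 8.981 to 9.123 in the others, and Slc6a13 was at 10.75 in that same sample and at 9.948 to 10.04 in the others. The sev sample was low for Slc25a51, at 10.5 against 10.95 to 11.02 in the other spastic samples, and high for Slc6a15, at 11.09 against 10.72 to 10.80. Slc30a3 was at 11.99 in the first 2-month sample and at 12.18 to 12.24 in the other spastic samples. Among controls Slc11a2 was at 9.648 in the 12-month males and at 9.915 to 9.94 in the others, and Slc30a3 was at 12.12 in the 12-month females and at 12.02 to 12.03 in the others.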

How the results depend on the processing

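Each count of calls here is followed in brackets by the share of all genes called in the same fit. For spastic against control cords the 22 calls (19.8%) became 13 (11.8%) with only the 1a arrays. They became 3 (2.57%) with only samples titled female and 6 (6.16%) without the spastic samples titled male. In the age-adjusted fit they were 10 (10.9%), and 1 (0.14%) when the Pcx ratio was a term. With a sample left out 13 to 22 were called (11.2% to 19.8%). With the letter as a replicate block the count was 30 (28.3%), 21 of them among the 22. Nothing in the titles says that a letter pairs samples. The 2 calls against B6C3Fe (2.05%) became 1 with the filter at the 60th percentile (2.99%), without a trend (0.762%) or without sex (2.05%). They became 0 with only the 1a arrays (0.14%) or the Pcx ratio (0.171%). With every array as its own replicate they became 6 (9.74%), with samples as a random block 3 (5.03%) and with the replicate block 3 (8.01%). With a sample left out they were 0 to 3 (0.156% to 3.07%). B6C3Fe against control gave 1 with no filter (1.67%) and 9 with every array as its own replicate (8.09%). It gave 7 with samples as a random block (3.59%) and 9 with the letter as a replicate block (8.17%). Sev against other spastic samples gave 1 with no filter (0.152%). The cause of these changes was not tested. Fits that left samples out also had fewer samples, and the part of that was not tested either. No named transporter changed the sign of a call under any alternative. Values near the floor understate differences, and 48 of 146 transporters were too dim to test.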

Other observations

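Transporters whose spastic samples differ most from one another were chosen after their values were seen, as the 5 with the largest SD over spastic samples; the median SD of the 98 was 0.23 in spastic and 0.20 in control cords, against 0.22 and 0.19 over all genes. Slc15a2, a carrier of small peptides, was at 6.66 in the sev and 6.74 in the 3+ month sample and at 8.43 to 8.76 in the other spastic samples. Slc27a1, a fatty acid transporter, was at 10.85 in the sev, 10.96 in the 3+ month and 10.37 in the first 2-month sample, and at 9.13 and 9.45 in the remaining spastic samples. Slc4a1, the anion exchanger of red blood cells, ran from 7.71 in the 6-month sample to 10.09 in the second 2-month sample. Slc25a47, a mitochondrial carrier of liver, ran from 7.0 to 8.85, and Slc1a2 from 7.67 in the 3+ month sample to 9.53 in the sev sample.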
